A study of Mus musculus and Homo sapiens with 12 samples.

Results

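Arginine tRNAs other than Arg-TCT were examined in a genome-wide tRNA-charging assay of mouse and human cells. The members were chosen by name and comprised every gene of the count files named tRNA-Arg-ACG, tRNA-Arg-CCG, tRNA-Arg-CCT or tRNA-Arg-TCG, called Arg-ACG, Arg-CCG, Arg-CCT and Arg-TCG below. These 4 isoacceptors comprised 14 of 224 tRNA genes and 4 of 51 isoacceptors in the mouse files, and 15 of 260 genes and 4 of 49 isoacceptors in the human files. The mouse genes were 3 of Arg-ACG, 3 of Arg-CCG, 4 of Arg-CCT and 4 of Arg-TCG, and the human genes were 2, 2, 5 and 6 in the same order. All 14 mouse genes and 11 of the 15 human genes had a mean of at least 50 reads with a called end over the 6 libraries of their cell line.

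The assay was run on 12 libraries in 4 groups of 3. Mouse embryonic fibroblasts (MEF) were held in medium with dialyzed serum, either without drug (MEF control) or with 100 nM halofuginone (MEF HF), an inhibitor of the prolyl activity of the bifunctional synthetase EPRS. The labels give 6 h of HF, and the study's figure legends give a different time. NTERT cells, an immortalized line of human keratinocytes, were left without irradiation (NTERT control) or exposed to UV-B at 400 J/m2 and harvested after 3 h (NTERT UV). The labels name no allele or transgene for any group. The study's methods call its replicates biological, but the labels do not say that libraries came from separate cultures. The p-values therefore speak only of these libraries, and in MEF fits their spread was pooled over tRNAs, as stated below.

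Transfer RNAs carry an amino acid on the last adenosine of their CCA end, and all isoacceptors of arginine are charged by the same enzyme, arginyl-tRNA synthetase. Arg-ACG, whose first anticodon base is converted to inosine, reads CGU, CGC and CGA, whereas Arg-TCG serves CGA, Arg-CCG serves CGG, and Arg-CCT serves AGG. In the assay, periodate attacks the free 3′-end of an uncharged tRNA, which then loses its last base, so a read ending CCA was counted as charged and a read ending CC as uncharged. Charging is given below as CCA reads in percent of the reads ending CCA or CC. Reads with neither end were counted only in the total of a gene, and reads with either end are called reads with an end.

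RefSeq lists 19 mouse genes of these 4 anticodons on build GRCm38.p6, 6 for ACG, 3 for CCG, 5 for CCT and 5 for TCG, and each is 73 bases long. Of these, 7 lie on chromosome 13 between 21215458 and 23526528, the largest number on any of the 9 chromosomes that hold one. An Arg-CCG gene (n-TRccg2, chr17:23550263-23550335) and an Arg-CCT gene (n-TRcct2, chr17:23548768-23548840) are close neighbours on chromosome 17. The RefSeq names do not match the gene numbers of the count files one to one, so the values below carry no coordinates. How reads that fit several genes were assigned is not given in the sources used here, and the split of reads between genes of an anticodon is therefore uncertain.

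The libraries differed in depth, with 253693 to 6286863 reads on tRNA genes, of which 15251 to 856861 were on the 4 arginine isoacceptors. The share of reads that aligned to tRNA was 3.43 to 9.52% in the MEF control libraries and 19.1 to 27.8% in the MEF HF libraries, so this share was separate between the MEF groups. The median charging of all isoacceptors was 71.9, 55.7 and 80.7% in the 3 MEF control libraries and 90.1, 86.9 and 78.9% in the 3 MEF HF libraries. In NTERT cells this median was between 45.0 and 52.8%. As a check of the HF label, charging of the 3 proline isoacceptors fell by 2.25 to 2.52 on the log2 scale of CCA over CC reads, with adjusted p-values of 0.0171 to 0.0268.

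In MEF cells, all 4 arginine isoacceptors had a higher mean charging with HF than in control, by about as much as the other tRNAs, and no difference passed the test. Arg-ACG charging was 76.2, 68.6 and 81.4% in the control libraries and 92.5, 87.7 and 78.4% with HF. The HF library of replicate 3 was below the control library of replicate 3, and the groups overlapped. Arg-CCG charging was 82.1, 71.0 and 87.8% in control and 91.8, 92.3 and 87.3% with HF, with overlap between the third libraries only. Arg-TCG, the least abundant of the 4, had 76.6, 68.5 and 83.5% in control and 92.4, 89.3 and 81.1% with HF, with the same order of libraries as Arg-ACG.

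Arg-CCT was the only one of the 4 whose groups did not overlap. Its charging was 72.2, 56.9 and 86.1% in control and 87.3, 91.4 and 87.6% with HF. The margin was small, since the highest control and the lowest HF library differed by little, and groups without overlap were found for 14 of 48 isoacceptors (29.2%). The control libraries of Arg-CCT had the widest spread of the 4 members, 71.7% ± 14.6 (SD, n = 3), against 88.8% ± 2.31 (SD, n = 3) with HF.

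**Figure D1:**
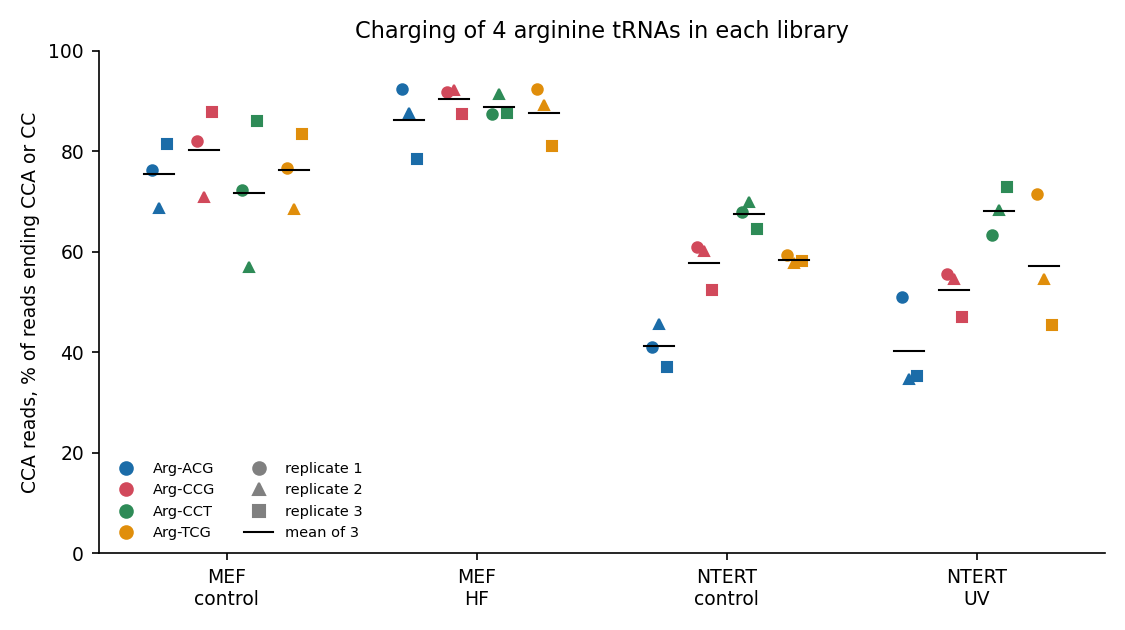
Charging of the 4 arginine isoacceptors in each of 12 libraries. The y axis gives CCA reads in percent of reads ending CCA or CC, symbols give the replicate number, and black lines are means of 3 libraries. The MEF HF libraries sit between 78.4 and 92.5%, the MEF control libraries between 56.9 and 87.8%, and in NTERT cells Arg-ACG lies lowest in both groups.

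The difference between HF and control, on the log2 scale of CCA over CC reads, was 1.13 (SE 0.73) for Arg-ACG with an adjusted p of 0.177 by limma. It was 1.17 (SE 0.73, adjusted p = 0.168) for Arg-CCG and 1.20 (SE 0.73, adjusted p = 0.166) for Arg-TCG. For Arg-CCT it was 1.54 (SE 0.73), with a 95% interval of 0.11 to 2.97, an unadjusted p of 0.0355 and an adjusted p of 0.100. None of the 4 passed, whereas 9 of all 48 isoacceptors did (18.8%), 6 of them upward and 3, the proline isoacceptors, downward. The SE was the same for all 4 members because limma pooled the spread over isoacceptors in this fit. Isoacceptors share shifts of whole libraries, so these p-values can be too small and the interval too narrow.

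The median difference of the 4 members was 1.18, and that of all 48 isoacceptors was 1.21. By size of the difference from the highest down, Arg-CCT ranked 14 of 48, Arg-TCG 26, Arg-CCG 27 and Arg-ACG 30. When the median of each library was subtracted, the differences became -0.23 for Arg-ACG, -0.19 for Arg-CCG, -0.16 for Arg-TCG and 0.18 for Arg-CCT. This step moves all isoacceptors by the same amount and leaves the ranks as given. Arg-TCG, near the middle of the 48, was below 0, so a negative sign alone does not place a member below most tRNAs. None of the 4 passed on this scale, with adjusted p-values of at least 0.791, and 3 of 48 isoacceptors passed (6.25%), those of proline.

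**Figure D2:**
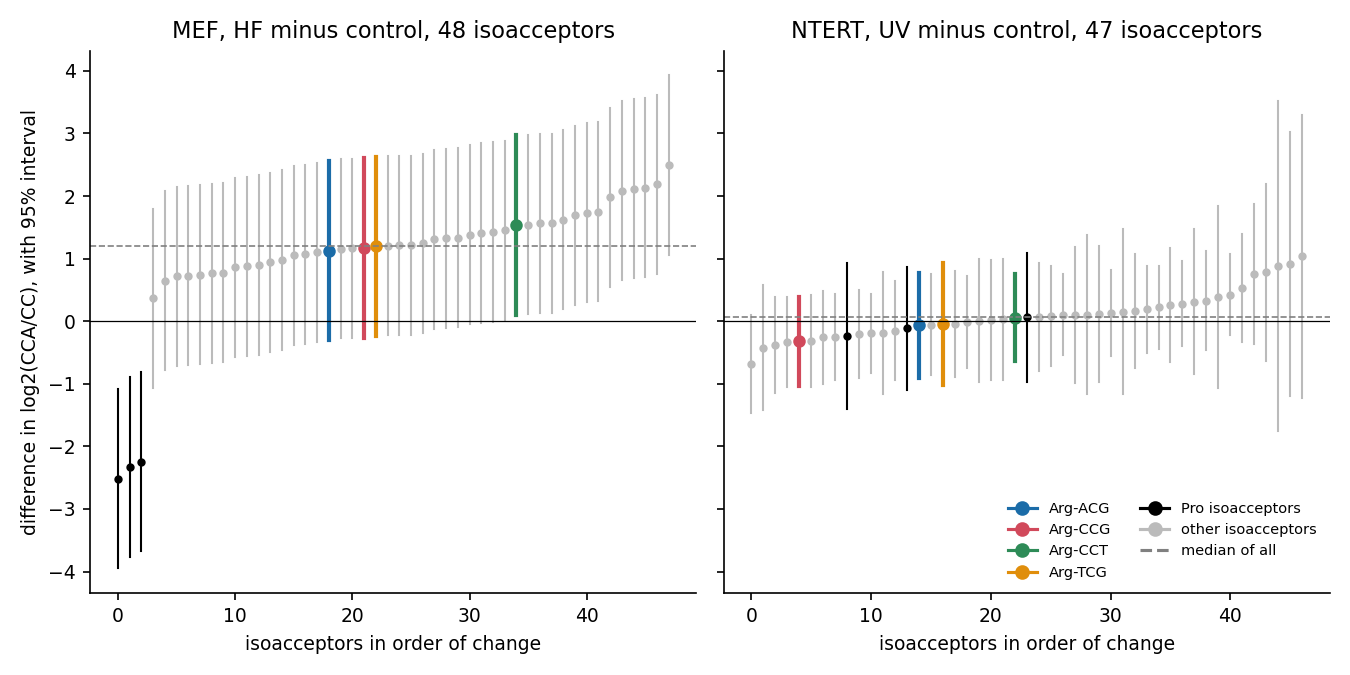
Differences in charging between treatment and control for all tested isoacceptors, in order of size, for MEF (48) and NTERT cells (47). Points are limma estimates on the log2 scale of CCA over CC reads, lines are 95% intervals, and the dashed line is the median of all isoacceptors. In MEF cells the arginine members lie at 1.13 to 1.54, around the dashed line at 1.21, and in NTERT cells at -0.32 to 0.053.

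The MEF result depended on the control library of replicate 3, in which the 4 isoacceptors summed were charged to 86.1%, against 74.6 and 60.5% in replicates 1 and 2 and 89.0, 91.4 and 86.7% with HF. Without that library, Arg-CCT differed by 2.12 (adjusted p = 0.0229 by limma) and passed, together with 22 of 48 isoacceptors in all. The summed charging of the 4 members did not overlap between the groups, by a margin of 86.1 against 86.7%. Arg-CCT gave 64.5 to 83.1% of the summed MEF reads, and the other members overlapped when taken singly. The two-sided exact permutation test of the sum over 20 labelings gave p = 0.1, the smallest it allows.

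The 14 mouse genes all had a higher mean log2 ratio with HF, and none passed the test, whereas 20 of all 139 genes did (14.4%), 16 upward and 4 downward. Their median difference was 1.29, against 1.30 over all 139 genes. The smallest was at tRNA-Arg-ACG-2-1, with a difference of 0.71 (SE 0.76, adjusted p = 0.377 by limma), and the largest at tRNA-Arg-CCT-1-1, with 1.67 (SE 0.76, adjusted p = 0.106). After subtraction of the library median, none of the 14 passed, and 5 of 139 genes did (3.60%), 1 upward and 4 downward.

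The libraries of both groups were fully separate at 4 of the 14 genes, and at 43 of 139 genes in all (30.9%). These 4 were tRNA-Arg-CCG-2-1, tRNA-Arg-CCG-3-1, tRNA-Arg-CCT-2-1 and tRNA-Arg-CCT-4-1. At tRNA-Arg-CCT-4-1, which held 39.8 to 43.0% of the Arg-CCT reads, charging was 77.5, 63.6 and 87.9% in control and 89.7, 92.6 and 89.8% with HF. At tRNA-Arg-CCG-3-1, the gene with most Arg-CCG reads, it was 82.9, 71.7 and 88.7% in control and 91.4, 92.6 and 88.8% with HF, a separation of less than 1 percentage point. Without the control library of replicate 3, the 4 Arg-CCT genes passed with differences of 2.00 to 2.41, among 64 of 140 genes in all.

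The genes of 1 anticodon were not charged alike in MEF cells. Charging at tRNA-Arg-CCT-1-1 was 57.3, 43.8 and 82.8% in control and 79.9, 88.1 and 84.6% with HF, and at tRNA-Arg-CCT-3-1 it was 57.6, 42.4 and 80.3% in control and 77.1, 85.9 and 75.8% with HF. Both were below tRNA-Arg-CCT-2-1 and tRNA-Arg-CCT-4-1 in 6 of 6 libraries, by means of 9.53 to 13.6 percentage points. Likewise, tRNA-Arg-ACG-2-1 was above both other Arg-ACG genes in 6 of 6 libraries, by means of 10.3 and 8.16 points. It was 84.1, 83.7 and 87.4% charged in control, the narrowest range of these 3 genes in that group, and 93.9, 91.7 and 83.0% with HF. At tRNA-Arg-TCG-4-1 charging was below that of the 3 other Arg-TCG genes in 6 of 6 libraries, by means of 7.14 to 8.09 points.

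In NTERT cells, none of the 4 isoacceptors differed between UV and control beyond the spread of the libraries. Arg-ACG charging was 41.0, 45.6 and 37.0% in control and 51.0, 34.6 and 35.2% after UV. The UV library of replicate 1 was the highest of the 6 and the other 2 UV libraries were the lowest. Arg-TCG charging was 59.4, 57.7 and 58.1% in control, within 2 points, and 71.5, 54.6 and 45.5% after UV, so the UV libraries lay on both sides of control. The SD of Arg-TCG was 0.880 percentage points in control and 13.2 points after UV (n = 3 each), a difference in spread that was not tested.

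Arg-CCG charging was 60.9, 60.2 and 52.4% in control and 55.5, 54.5 and 47.1% after UV, with overlap. Arg-CCT charging was 68.0, 69.9 and 64.5% in control and 63.4, 68.4 and 72.8% after UV, and a UV library was both the lowest and the highest of the 6. The differences between UV and control were -0.063 (95% interval -0.90 to 0.77) for Arg-ACG, -0.32 (-1.03 to 0.38) for Arg-CCG, 0.053 (-0.64 to 0.75) for Arg-CCT and -0.044 (-1.02 to 0.94) for Arg-TCG. All 4 adjusted p-values were 0.986 by limma. Of all 47 isoacceptors none passed (0%), and none had an unadjusted p under 0.05.

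The 11 NTERT genes with enough reads gave the same outcome, since none of them and none of all 168 genes passed in limma (0%), with 3 of 168 at an unadjusted p under 0.05. Their differences lay between -0.16 at tRNA-Arg-CCG-1-1 and 0.35 at tRNA-Arg-TCG-5-1, with a median of 0.027 against 0.079 over all genes. The difference of Arg-CCG was larger when its genes were summed, -0.32, than at either gene, -0.16 at tRNA-Arg-CCG-1-1 and -0.0087 at tRNA-Arg-CCG-2-1. The less charged of these genes, tRNA-Arg-CCG-1-1, took 36.9, 33.9 and 46.7% of the Arg-CCG reads in control and 58.2, 37.4 and 51.2% after UV. The part of this share in the summed difference was not tested.

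The levels of charging differed widely between arginine genes in NTERT cells, as the 2 Arg-CCG genes showed. At tRNA-Arg-CCG-1-1, charging was 42.3, 38.7 and 37.9% in control and 45.4, 34.4 and 31.9% after UV. At tRNA-Arg-CCG-2-1 it was 77.4, 78.6 and 75.2% in control and 79.5, 74.8 and 76.5% after UV. The second gene was above the first in 6 of 6 libraries, by a mean of 38.6 percentage points and by at least 34.1 points.

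Counted over all reads of the gene, these 2 genes were much closer. CCA reads were 33.7% ± 4.40 of all reads at tRNA-Arg-CCG-1-1 and 39.7% ± 2.12 at tRNA-Arg-CCG-2-1 (SD, n = 6 libraries each). What set the genes apart was the reads without CCA. At tRNA-Arg-CCG-1-1, 54.2% of all reads ended in CC and 12.1% had neither end, whereas at tRNA-Arg-CCG-2-1, 11.9% ended in CC and 48.4% had neither end.

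The other NTERT arginine genes fell on 1 side or the other of the same contrast. With tRNA-Arg-CCG-1-1, the genes tRNA-Arg-ACG-1-1, tRNA-Arg-ACG-2-1 and tRNA-Arg-TCG-1-1 had 69.6 to 96.8% of their reads with an end and were 31.8 to 56.5% charged over the 6 libraries. With tRNA-Arg-CCG-2-1, the genes tRNA-Arg-CCT-1-1 to tRNA-Arg-CCT-4-1, tRNA-Arg-TCG-3-1 and tRNA-Arg-TCG-5-1 had 42.9 to 57.3% of their reads with an end and were 49.4 to 80.8% charged. The ranges of the share with an end did not overlap, and in 5 of 6 libraries each of the 7 genes of the second set was charged more than each of the 4 genes of the first. The exception was the UV library of replicate 1, where tRNA-Arg-TCG-1-1 at 56.5% was above tRNA-Arg-CCT-1-1 at 52.2%.

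Unlike charging, CCA reads over all reads overlapped widely between the 2 sets, with 29.2 to 45.2% and a median of 33.8% in the first and 22.4 to 46.3% and a median of 36.0% in the second. Reads ending in CC were 34.5 to 64.7% of all reads in the first set and 10.1 to 25.2% in the second. The 2 sets were formed after these values had been seen and were not tested.

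**Figure D3:**
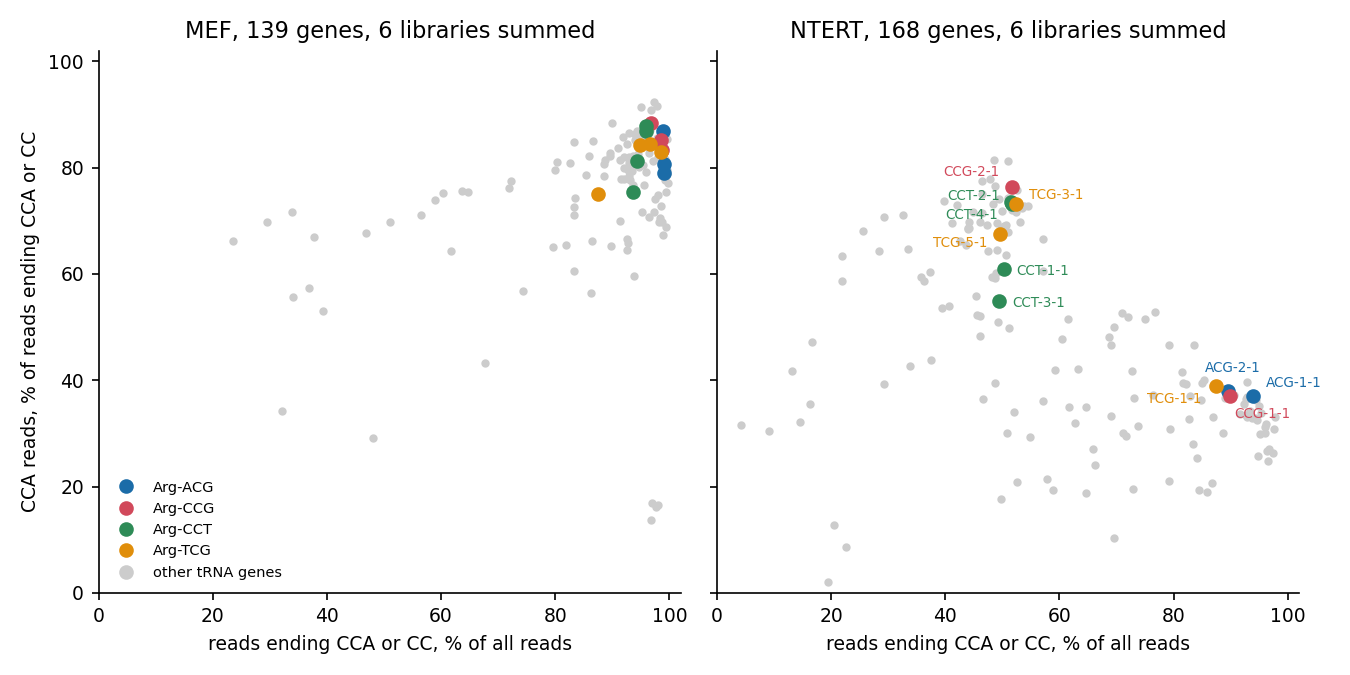
Share of reads with an end (x axis, percent of all reads) and charging (y axis, percent of reads ending CCA or CC) for each tRNA gene with enough reads, with 6 libraries of a cell line summed. Arginine genes are coloured by anticodon and named in the NTERT panel, where 4 of them lie at the lower right and 7 at the upper left. In the MEF panel all 14 lie together at the upper right.

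A like relation was seen over the NTERT tRNA genes of other amino acids. Over these 153 genes, with every arginine gene left out, the share of reads with an end and charging were correlated at Pearson's r = -0.44 and Spearman's rho = -0.50. This describes genes of the same libraries and not independent replicates, and charging has the reads with an end as its denominator. Below a limit of 65% of reads with an end, chosen after the values had been seen, 90 genes had a median charging of 61.9% and a median of 27.5% CCA reads over all reads. At or above it, 63 genes had medians of 33.1% and 30.7%. In MEF cells, 107 of 122 such genes were at or above 65%, and rho was 0.32.

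The mouse genes showed no such division, since all 14 arginine genes had 83.1 to 99.6% of their reads with an end in every MEF library. At the mouse gene named tRNA-Arg-CCG-1-1, for example, this share was 94.9 to 99.4%, and at tRNA-Arg-CCG-2-1 it was 95.4 to 99.4%. The gene numbers of the 2 species need not mark the same gene.

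Summed by anticodon, the 4 NTERT isoacceptors kept much of an order within a library. Arg-ACG was below each of the 3 others in 6 of 6 libraries, by a mean of 0.85 (SD 0.34) from Arg-CCG, 1.01 (SD 0.28) from Arg-TCG and 1.63 (SD 0.54) from Arg-CCT on the log2 scale of CCA over CC reads. Arg-CCG was below Arg-CCT in 6 of 6 libraries, by 0.78 (SD 0.42). For each of these 4 pairs the two-sided exact permutation test by sign flips gave p = 0.03125, the smallest it allows with 6 libraries. The p adjusted over 12 pairs was 0.0938, so none passed. With only 4 of 12 pairs at the smallest p, none could fall under 0.05 after adjustment, so this outcome does not decide the order. Arg-CCT was above Arg-TCG in 5 of 6 libraries, and Arg-CCG and Arg-TCG could not be ordered, with either one higher in 3 libraries.

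With CCA reads counted against all other reads, an alternative chosen after seeing the data, these differences shrank to between -0.12 and 0.043 for Arg-ACG against the others, and Arg-ACG lay above Arg-CCT in 4 of 6 libraries. The gap between the highest and the lowest of the 4 members within an NTERT library had a median of 27.3 percentage points for charging and of 5.12 points for CCA reads over all reads. In MEF libraries the medians were 7.73 and 8.26 points. Adjusted p-values of the 12 pairs were at least 0.281 with this measure.

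**Figure D4:**
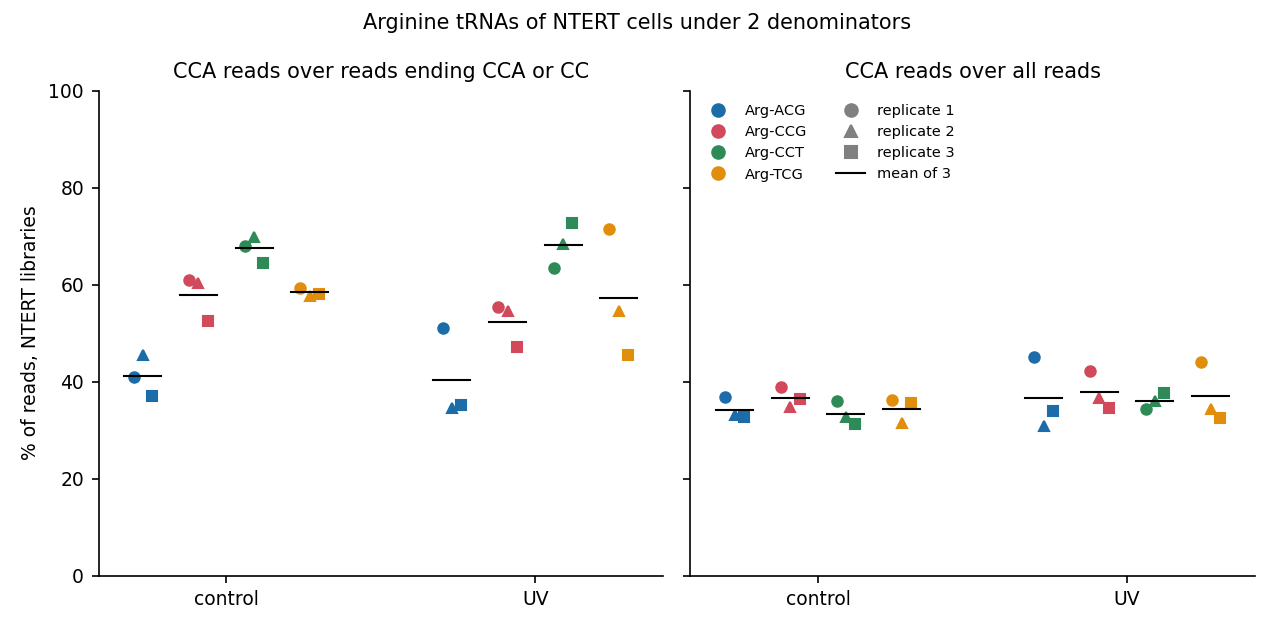
CCA reads of the 4 arginine isoacceptors in the 6 NTERT libraries, in percent of the reads ending CCA or CC (left) and of all reads (right). Symbols give the replicate number and black lines are means of 3 libraries. On the left the members lie between 34.6 and 72.8%, in the order Arg-ACG lowest and Arg-CCT highest in all but 1 library, and on the right between 30.9 and 45.2% with no common order.

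In MEF cells the order within a library was less regular. Arg-CCG was the highest of the 4 on average and was above each of the others in 5 of 6 libraries, by means of 0.49 over Arg-ACG, 0.46 over Arg-CCT and 0.37 over Arg-TCG (exact permutation p = 0.0625 and adjusted p = 0.107 for each). Arg-CCT was above Arg-ACG in 3 of 6 libraries and above Arg-TCG in 3 of 6. The difference between Arg-ACG and Arg-TCG varied least between libraries, with Arg-TCG higher by a mean of 0.11 (SD 0.12).

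The share of reads with an end was higher with HF for all 4 members in MEF cells, and this difference passed in limma. The SE was 0.47 for each, since this fit also pooled the spread over isoacceptors that share library shifts. Its p-values can therefore be too small. For Arg-ACG the share was 97.9, 97.0 and 98.3% in control and 99.5, 99.3 and 99.5% with HF, a log2 difference of reads with and without an end of 2.02 (SE 0.47, adjusted p = 0.00037 by limma). For Arg-CCT it was 92.9, 90.3 and 94.2% in control and 94.9, 97.2 and 96.7% with HF, with a difference of 1.08 (SE 0.47, adjusted p = 0.0290). Arg-CCG rose by 1.32 and Arg-TCG by 1.41, with adjusted p-values of 0.0107 and 0.00739.

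For each of the 4, every HF library was above every control library. Groups were separate for 35 of 48 isoacceptors (72.9%), and 38 of 48 passed the test (79.2%), so most tRNAs shared this difference. After subtraction of the library median none of the 4 passed and none of 48 did. The 4 members remained positive, but this step moves all isoacceptors by the same amount. Arg-CCT, ranked 35 of 48 from the highest, was still at 0.010, so most isoacceptors were positive too. The call of Arg-CCT was lost without control replicate 1 or 2, or HF replicate 2 or 3, where its difference was 0.87 to 1.11.

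In NTERT cells, Arg-TCG had 61.0, 54.6 and 61.2% of its reads with an end in control and 61.5, 63.1 and 71.5% after UV, and these groups did not overlap, which was the case for 6 of 48 isoacceptors (12.5%). For Arg-ACG, the member with the highest such share, it was 89.6, 72.8 and 88.3% in control and 88.5, 89.4 and 96.6% after UV. For Arg-CCT it was 53.0, 46.8 and 48.5% in control and 54.3, 52.7 and 51.7% after UV. The differences of the 4 members were 0.20 to 1.14 with adjusted p-values of 0.675 to 0.741 by limma, and none of 48 isoacceptors passed (0%), with 3 at an unadjusted p under 0.05.

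Arginine isoacceptors also differed in how many of the tRNA reads they took, which compares reads of tRNAs of like length and not molecules. Arg-CCT took 10.7, 11.8 and 15.3% of all tRNA reads in the MEF control libraries and 7.65, 14.3 and 10.2% with HF, and ranked from 2 to 5 among 48 isoacceptors. In NTERT cells it took 7.74, 6.01 and 4.05% in control and 2.41, 7.35 and 4.43% after UV. It was the most abundant of the 4 members in 12 of 12 libraries, with 64.5 to 83.1% of their summed reads in MEF and 49.3 to 75.9% in NTERT libraries.

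Arg-CCG took 2.10 to 2.98% of tRNA reads in MEF and 1.06 to 1.56% in NTERT libraries. Arg-ACG took 0.604 to 1.08% and 0.625 to 1.17%, and Arg-TCG 0.225 to 0.365% and 0.254 to 0.358%. The order Arg-CCT, Arg-CCG, Arg-ACG and Arg-TCG thus held in the MEF libraries without overlap between neighbours. In NTERT cells the ranges of Arg-CCG and Arg-ACG overlapped, and Arg-ACG was above Arg-CCG in the UV library of replicate 3.

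**Figure D5:**
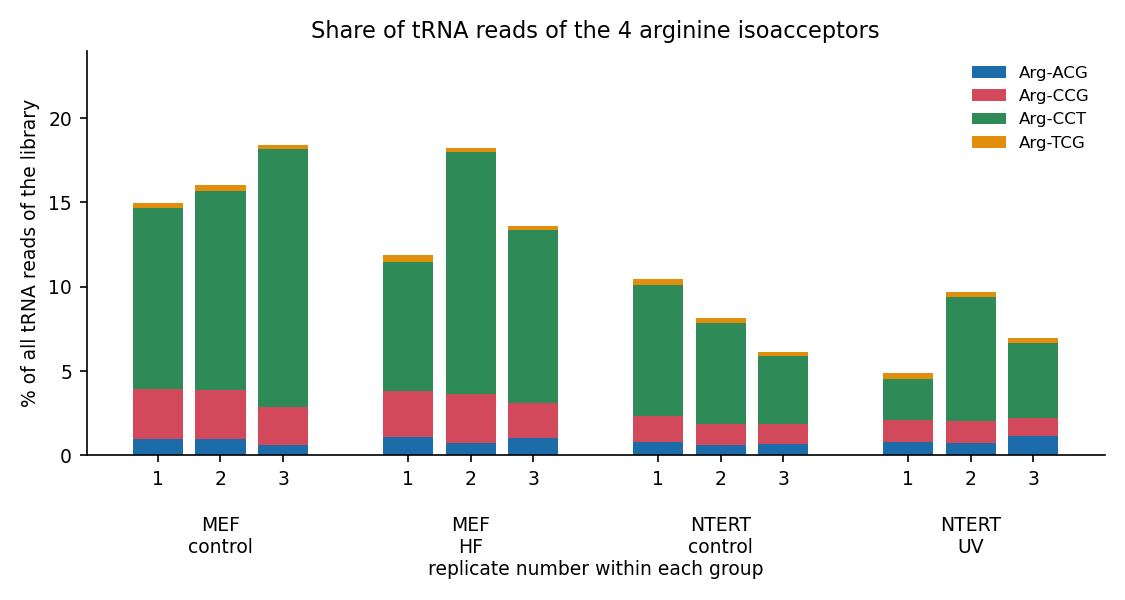
Reads of the 4 arginine isoacceptors in percent of all tRNA reads of a library, stacked, for 12 libraries in 4 groups. Together they take 11.9 to 18.4% in MEF and 4.88 to 10.4% in NTERT libraries, and Arg-CCT is the tallest segment in every library.

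No member differed in its share of reads between treatment and control beyond the spread of the libraries. With HF the log2 differences after TMM scaling were 0.32 (95% interval -0.37 to 1.00) for Arg-ACG, 0.081 (-0.61 to 0.77) for Arg-CCG, -0.11 (-0.80 to 0.58) for Arg-CCT and 0.20 (-0.49 to 0.89) for Arg-TCG, and 7 of 48 isoacceptors passed (14.6%). After UV they were 0.32 (-0.47 to 1.10), -0.14 (-0.86 to 0.58), -0.47 (-1.37 to 0.44) and -0.014 (-0.74 to 0.71) in the same order, and none of 48 passed in limma (0%), with 4 at an unadjusted p under 0.05. The sign for Arg-CCG with HF and for Arg-TCG after UV turned with library totals or median-of-ratios size factors in place of TMM. Fewer tRNA molecules and less recovery of a tRNA in the library cannot be told apart in such shares.

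Reads were spread unevenly over the genes of an anticodon. In MEF cells tRNA-Arg-CCG-3-1 held 80.6 to 84.6% of the Arg-CCG reads in control and 67.3 to 82.9% with HF, while tRNA-Arg-CCT-3-1 held 2.37 to 4.40% of the Arg-CCT reads over the 6 libraries. In NTERT cells tRNA-Arg-CCT-4-1 held the largest part of the Arg-CCT reads, 38.9 to 43.3%, and tRNA-Arg-TCG-3-1 the largest part of the Arg-TCG reads in 5 of 6 libraries, the exception being the UV library of replicate 3. The 4 human genes below the minimum, tRNA-Arg-CCT-5-1, tRNA-Arg-TCG-2-1, tRNA-Arg-TCG-4-1 and tRNA-Arg-TCG-6-1, had 9 to 192 reads per library and no charging is read from them.

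The isoacceptors whose charging was most like that of the 4 members summed, by Pearson's r over the 6 MEF libraries, were Glu-TTC (r = 0.99), Glu-CTC (r = 0.99) and Gly-GCC (r = 0.99). The median r of 44 other isoacceptors was 0.88, and all share the library medians given above. In NTERT cells they were Asn-GTT (r = 0.68), Leu-TAA (r = 0.52) and Thr-AGT (r = 0.44), and the median r of 43 isoacceptors was -0.12. These values describe 6 libraries each and were not tested.

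Arg-TCT, the arginine isoacceptor left out here, was 60.7, 52.2 and 44.2% charged in MEF control and 92.0, 82.4 and 81.9% with HF, a difference of 2.50 (SE 0.73, adjusted p = 0.0171 by limma) from 224 to 2104 reads with an end per library. After subtraction of the library median this difference was 1.14 (adjusted p = 0.508), the groups overlapped and the call was lost. The share of Arg-TCT reads with an end was 52.1, 43.5 and 43.6% in MEF control and 83.5, 69.3 and 75.7% with HF, and its part in the difference in charging was not tested. In NTERT cells it was 33.6 to 48.9% charged with 83.6 to 95.8% of reads with an end, values that overlapped those of Arg-ACG.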

How the data were processed

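The authors demultiplexed the reads, trimmed them (cutadapt in the methods, Trim Galore in the submitters' processing notes) and aligned them with Bowtie2 to unique tRNA gene sequences with CCA appended. The labels name GRCm38/mm10 and GRCh38/hg38. The authors deposited raw read counts for each tRNA gene in 3 columns that have no header, taken as all reads, reads ending CCA and reads ending CC. The NTERT replicate numbers are those of the labels, which differ from the deposited names. Other values were computed here.

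The members and lists were chosen with earlier results of these data known. Counts were summed by anticodon. Log2 ratios with 0.5 added to each count were tested with limma 3.58.1 in R 4.3.3 over all isoacceptors or genes with a mean of at least 50 reads, separately for MEF and NTERT cells and with Benjamini-Hochberg adjustment at 0.05. Shares of reads were scaled by TMM (trims of 30% and 5%). Pairs of members were compared within libraries by exact sign flips (scipy 1.17.1). The scripts were tested on simulated data. Named are all members, their genes with at least 50 reads, the 3 most similar isoacceptors and Arg-TCT. The ligated adapter of the study's methods holds random nucleotides, but the sources used here do not say that reads were collapsed by them. The spread between libraries sets the precision. Without the library median subtracted, the MEF limma fits pooled this spread over isoacceptors or genes. These are not independent within a library, so the p-values of those fits can be too small.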

Additional observations from a re-analysis of the deposited data

How the results depend on the processing

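The counts of arginine members or pairs past the threshold held within 1.5 times in 101 alternative settings and not in 3. Except for the MEF share of reads with an end, these counts were 0, and a count of 0 held if it stayed 0. Most of the 101 settings thus show only that no member newly passed. Those 3 were MEF charging without control replicate 3, at the isoacceptors and at the genes, and the MEF share of reads with an end after subtraction of the library median, where 0 of 4 members passed instead of 4. Leaving out 1 library at a time gave 0 to 1 called isoacceptors and 0 to 4 called genes for MEF charging, and 3 to 4 called members for the MEF share of reads with an end. Of the alternative values of single members, genes or pairs, 520 kept their direction and side of the threshold, 80 turned their direction, 5 passed the threshold newly and 8 no longer passed. No value that had passed turned its direction. The planned count models (edgeR and DESeq2) were not run, so whether they would change a call is not known. The depth limits the 4 human genes with fewest reads and also tRNA-Arg-TCG-5-1, and 3 libraries per group limit all tests.

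With the library median subtracted, the MEF charging differences became -0.23 for Arg-ACG, -0.19 for Arg-CCG and -0.16 for Arg-TCG, with or without the replicate block. For the MEF genes they became -0.066 (tRNA-Arg-ACG-1-1), -0.65 (tRNA-Arg-ACG-2-1), -0.019 (tRNA-Arg-ACG-3-1), -0.081 (tRNA-Arg-CCG-1-1), -0.069 (tRNA-Arg-CCG-2-1), -0.22 (tRNA-Arg-CCG-3-1), -0.044 (tRNA-Arg-CCT-3-1), -0.24 (tRNA-Arg-TCG-1-1), -0.14 (tRNA-Arg-TCG-2-1), -0.35 (tRNA-Arg-TCG-3-1) and -0.087 (tRNA-Arg-TCG-4-1). By construction these values leave out what most tRNAs share. A value below 0 need not be below the median of all tRNAs. The gene tRNA-Arg-ACG-1-1, at -0.066, ranked 68 of 139 from the highest. In NTERT cells the same step gave 0.0049 for Arg-ACG and 0.023 for Arg-TCG, with or without the block, 0.021 for tRNA-Arg-CCG-2-1, and -0.048 for the share of Arg-CCT reads with an end. With CCA reads against all other reads, NTERT charging differed by 0.15 (Arg-ACG), 0.067 (Arg-CCG), 0.15 (Arg-TCG), 0.15 (tRNA-Arg-ACG-2-1), 0.079 (tRNA-Arg-CCG-1-1), 0.10 (tRNA-Arg-CCG-2-1) and 0.034 (tRNA-Arg-TCG-1-1), and with equal weights for genes Arg-TCG differed by 0.14. The MEF share of Arg-CCG reads differed by -0.072 with library totals, -0.047 with median-of-ratios size factors and -0.070 with reads with an end only, and the NTERT share of Arg-TCG reads by 0.031, 0.029 and 0.058 in the same order. The median over all isoacceptors of the MEF share was 0.090 with TMM and -0.062 with library totals. Between members, Arg-ACG minus Arg-CCT in MEF cells was 0.31 with equal weights and 0.29 with CCA reads against all other reads, and Arg-ACG minus Arg-TCG was 0.057 and 0.11. With CCA reads against all other reads the NTERT pairs were 0.043 for Arg-ACG minus Arg-CCT, 0.16 for Arg-CCG minus Arg-CCT, 0.098 for Arg-CCG minus Arg-TCG and -0.061 for Arg-CCT minus Arg-TCG. Where no construction is named, the cause of a turned direction was not tested.

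Leaving out 1 library at a time, the NTERT charging differences ranged from -0.38 to 0.11 (Arg-ACG), -0.10 to 0.21 (Arg-CCT) and -0.49 to 0.31 (Arg-TCG). For the NTERT genes they ranged from -0.31 to 0.23 (tRNA-Arg-ACG-1-1), -0.42 to 0.095 (tRNA-Arg-ACG-2-1), -0.40 to 0.011 (tRNA-Arg-CCG-1-1), -0.11 to 0.079 (tRNA-Arg-CCG-2-1), -0.20 to 0.28 (tRNA-Arg-CCT-1-1), -0.19 to 0.30 (tRNA-Arg-CCT-3-1), -0.18 to 0.23 (tRNA-Arg-CCT-4-1), -0.53 to 0.15 (tRNA-Arg-TCG-1-1) and -0.014 to 0.47 (tRNA-Arg-TCG-3-1). The MEF shares of reads ranged from -0.021 to 0.46 (Arg-ACG), -0.19 to 0.17 (Arg-CCG), -0.38 to 0.12 (Arg-CCT) and -0.18 to 0.28 (Arg-TCG), and the NTERT shares from -0.82 to 0.0099 (Arg-CCT) and -0.068 to 0.060 (Arg-TCG).

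Counts over all tRNAs moved more. The 9 of 48 isoacceptors called for MEF charging became 0 with the test of the study's methods, 3 with the library median subtracted and 0 to 22 with 1 library left out. The 20 of 139 genes became 37, 5 and 0 to 64 with CCA reads against all other reads, the library median subtracted and 1 library left out. The 7 isoacceptors called for the MEF share of reads became 4 without a minimum, 1 with library totals or median-of-ratios factors, 3 with reads with an end only and 1 to 9 with 1 library left out. The 38 called for the MEF share of reads with an end became 0 with the library median subtracted and 24 to 38 with 1 library left out. In NTERT cells 1 isoacceptor was called for its share of reads without control replicate 1 or UV replicate 2. With the replicate number as a block, 0 of 48 isoacceptors and 0 of 139 genes were called for MEF charging, and no call of an arginine member changed. Deviations of libraries of equal number were correlated at -0.10, -0.11 and -0.033 for MEF charging, -0.35, 0.024 and -0.49 for NTERT charging, 0.16, 0.084 and -0.34 for MEF shares of reads, and -0.31, 0.59 and 0.53 for NTERT shares of reads. In the last, 2 of 3 pairs deviated together, but in none of the 4 did every pair, so the numbers were not taken as pairs.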
